A study of Mus musculus with 12 samples.

Results

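PPAR-alpha (peroxisome proliferator-activated receptor alpha, gene Ppara), its target genes and the enzymes of fatty acid oxidation were followed in mouse livers after oral exposure to coated silver nanoparticles. The set held 43 genes, listed by name. Each gene was read from array probe sets (groups of probes summarised as 1 value) that named it and no other gene, taking the probe set of highest mean over the 12 arrays. That gave 42 members out of 30062 genes, and all 42 passed the filter on low signal, among 19987 genes tested. The probe set of the remaining gene, Cyp4a10, also named Cyp4a31 and was not used. All 12 mice were 3 months old and came from 1 strain, C57BL/6J -Oca2p-un/J. The 4 control mice received water (control). A second group of 4 received 20 nm silver particles with a citrate coating (cit-AgNP), and the last group of 4 received 20 nm silver particles with a polyvinylpyrrolidone coating (PVP-AgNP). The dose was 4 mg Ag/kg, gavaged once a day for 7 days, and livers were taken 24 h after the final gavage. Each group held 2 males and 2 females: replicates 1 and 3 were the males of the control group, and replicates 3 and 4 were the males of both silver groups. Cages and array batches are not given, so the p-values measure the spread between these mice.

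Fatty acids released in or taken up by the liver activate PPAR-alpha, which pairs with the retinoid X receptor on DNA and raises transcription of genes that take up, activate, transport and burn fat. Long fatty acids enter mitochondria through a carnitine shuttle and are shortened by beta-oxidation, while very long and branched ones are first shortened in peroxisomes by a separate set of enzymes. In rodents the peroxisomal enzymes, the omega-hydroxylases of the Cyp4a family and several acyl-CoA thioesterases are classical responders to activators of the receptor.

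The binding site of the receptor pair is a direct repeat of AGGTCA with 1 base between the copies, AGGTCANAGGTCA, called DR1. RefSeq promoter windows (GRCm38.p6, 250 bases before to 50 bases after the annotated start) were at hand for 34 of the 42 members, and both strands were searched. No member's window held the exact DR1 letters. With up to 1 mismatch in its 12 defined bases, DR1 was found in 2 of 34 members (5.88%) and in 0.599% of the 11845 tested genes with a window. With up to 2 mismatches it was found in 6 members (17.6%), namely Fabp1, Acot12, Acot4, Cd36, Plin2 and Slc25a20, against 4.14% of tested genes. The shorter half-site AGGTCA, which lies inside DR1, was in 11 members (32.4%) and 16.3% of tested genes. A match describes letters in these windows and is not a site shown to be bound. The 250 bases before the start are given for the closest matches (Fabp1, which binds fatty acids in the cytosol, and Acot12, a cytosolic acetyl-CoA thioesterase), for the matching members that the comparisons below turn on (Plin2, a coat protein of lipid droplets, and Acot4, a peroxisomal thioesterase), and for Ehhadh, the peroxisomal bifunctional enzyme, whose best alignment had 4 mismatches. Capitals mark the DR1 match, which lies on the strand opposite to the gene in all 4 matching windows. They are read 5′ to 3′ along each gene, at chr6:71199629-71199878 (Fabp1, plus strand), chr13:91741271-91741520 (Acot12, plus strand), chr4:86670060-86670309 (Plin2, minus strand), chr12:84038129-84038378 (Acot4, plus strand) and chr16:21787835-21788084 (Ehhadh, minus strand).
Fabp1: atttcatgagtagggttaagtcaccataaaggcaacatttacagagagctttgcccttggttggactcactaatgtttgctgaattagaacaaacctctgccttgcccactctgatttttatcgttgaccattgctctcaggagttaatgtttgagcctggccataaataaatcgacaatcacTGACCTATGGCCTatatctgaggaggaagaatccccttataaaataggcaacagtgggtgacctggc
Acot12: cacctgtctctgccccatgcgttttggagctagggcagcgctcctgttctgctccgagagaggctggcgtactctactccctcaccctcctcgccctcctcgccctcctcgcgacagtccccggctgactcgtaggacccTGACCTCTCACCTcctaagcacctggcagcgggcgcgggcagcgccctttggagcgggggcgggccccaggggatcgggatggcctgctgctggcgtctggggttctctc
Plin2: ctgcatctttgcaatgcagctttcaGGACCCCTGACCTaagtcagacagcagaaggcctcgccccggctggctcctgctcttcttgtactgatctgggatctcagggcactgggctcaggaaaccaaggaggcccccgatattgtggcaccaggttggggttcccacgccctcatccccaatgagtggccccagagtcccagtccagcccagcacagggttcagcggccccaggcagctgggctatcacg
Acot4: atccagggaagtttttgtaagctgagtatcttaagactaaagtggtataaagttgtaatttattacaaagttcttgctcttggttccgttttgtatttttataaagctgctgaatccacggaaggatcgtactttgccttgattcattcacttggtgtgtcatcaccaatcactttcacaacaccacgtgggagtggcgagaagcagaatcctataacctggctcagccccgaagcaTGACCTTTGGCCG
Ehhadh: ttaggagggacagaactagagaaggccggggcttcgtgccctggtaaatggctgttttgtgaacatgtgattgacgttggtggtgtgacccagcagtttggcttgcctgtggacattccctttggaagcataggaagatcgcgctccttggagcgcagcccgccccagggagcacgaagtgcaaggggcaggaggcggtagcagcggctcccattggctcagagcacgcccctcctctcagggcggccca

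All levels are log2 signals, on which a step of 1 is a doubling, from 1 array per mouse. The hepatocyte marker Alb stood at the top of the scale, 19.93, on every array, so it cannot show a change in hepatocyte content. The 12 hepatocyte markers, many of them at that ceiling, had fitted differences from control of -0.04 to 0.28 with citrate and -0.34 to 0.39 with PVP. Adipocyte-defining Adipoq and Lep were at 3.63 to 4.28 and 3.04 to 3.77, near the filter of 3.93. The other adipocyte markers measured had means above it, 3.94 (Plin1), 4.12 (Retn) and 5.72 (Lipe). The arrays differed in quality, measured as the area under the curve that separates exon from intron control probe sets (a higher area means cleaner signal). The area was 0.824 ± 0.016 in control, 0.820 ± 0.00624 in citrate and 0.802 ± 0.0198 in PVP arrays (mean ± SD, n = 4), and the difference of PVP from control (p = 0.171) and from citrate (p = 0.143) did not pass an exact permutation test (two-sided). PVP replicates 1 and 4 had the lowest areas, 0.778 and 0.794. Control replicate 4, a female, had the highest, 0.842.

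Members were summarised in each mouse as the median deviation from the mean of the control mice of that sex. Since that mean rests on 2 mice, the control mice of a sex mirror each other. The control males were at 0.01 and -0.01, the control females at -0.48 (replicate 2) and 0.48 (replicate 4). In control replicate 4, 41 of 42 members were above that mean, and in control replicate 2, 41 were below it. The citrate females were at -0.06 and 0.02 and the citrate males at -0.48 and -0.37. PVP livers were at -1.08 (replicate 1, female), -0.20 (replicate 2, female), -0.04 (replicate 3, male) and -0.66 (replicate 4, male). Thus all 42 members were below the control females' mean in PVP replicate 1 and 38 were below the control males' mean in PVP replicate 4. These were the pair of arrays with the lowest areas. PVP replicate 2 lay inside the range of the control females. PVP replicate 3, at -0.04, lay slightly below the 2 control males, though inside the range of all control mice.

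**Figure D1:**
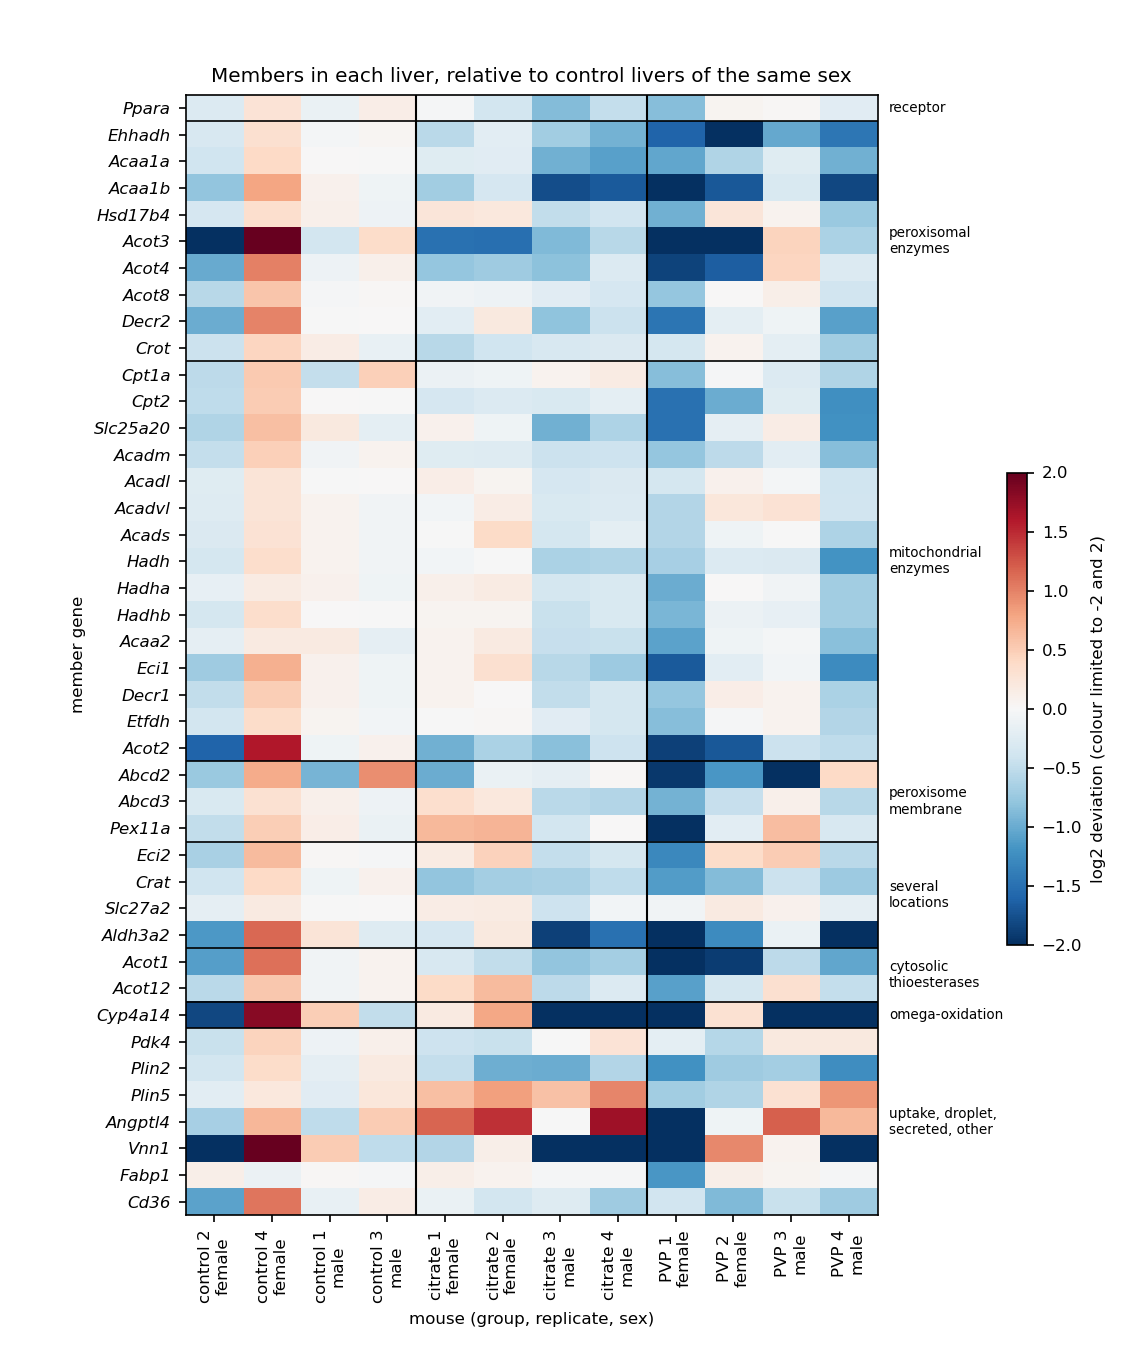
Log2 deviation of each of the 42 members (rows, grouped by role) from the mean of the control mice of that sex, in each of the 12 livers (columns); colours are limited to -2 and 2. Control replicate 4 is the column with 41 members above its reference, and PVP replicate 1 the column with all 42 below.

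**Figure D2:**
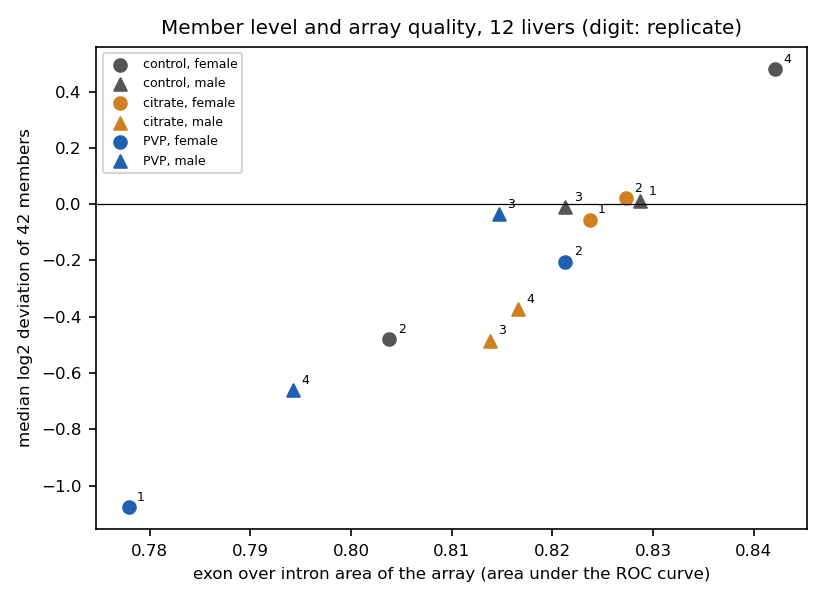
Median log2 deviation of the 42 members in each liver (vertical axis) against the exon over intron area of its array (horizontal axis), with colour for group, shape for sex and a digit for replicate. PVP replicates 1 and 4 combine the lowest areas (0.778 and 0.794) with the lowest medians (-1.08 and -0.66), and control replicate 4 the highest area (0.842) with the highest median (0.48).

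The first comparison asks whether citrate-coated silver changed the set. No member passed the threshold (limma, Benjamini-Hochberg adjusted p under 0.05 over all genes), where 0.005% of all genes did, 1 gene in all. Of the 42 members 36 had a log2 difference below 0, against 49.6% of all genes, and the median member difference was -0.25 against 0.00 for all genes. At an unadjusted p under 0.05, 5 members were lower (3.82% of all genes were), namely Crat, Plin2, Ehhadh, Acaa1a and Acaa1b, and 1 was higher, Plin5 (2.75% of all genes). The median member difference was -0.04, with 27 members below 0 when control replicate 4 was left out. The count of members lower at that p was 12 without control replicate 2 (4.17% of all genes in that fit), 3 without control replicate 1 (3.55%), and 2 without control replicate 3, control replicate 4, citrate replicate 3 or citrate replicate 4 (from 2.6% to 4.18%).

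The same comparison for PVP-coated silver found no member past the threshold, where 0.04% of all genes passed. Of the members 41 had a difference below 0 (50.5% of all genes), with a median of -0.50 against 0.00 for all genes, and Slc27a2 alone was at 0.01. At an unadjusted p under 0.05, 10 members were lower, where 12.3% of all genes were, and none was higher, where 8.05% were. At an adjusted p under 0.1, 3 members were lower (Ehhadh, Crat and Plin2), against 1.04% of all genes. The 2 lowest areas fell on PVP arrays. With the area as a covariate the median member difference was -0.01 and 22 of 42 members were below 0. Without PVP replicates 1 and 4 the median was -0.14 with 29 below 0, and without control replicate 4 as well, it was 0.01 with 21 below 0. Without PVP replicate 1 alone the median was -0.28 with 35 below 0. The count of lower members at an unadjusted p under 0.05 rose to 21 without control replicate 2, where 12.8% of all genes were lower. It was 19 without PVP replicate 3, where 14.4% were. The count fell to 7 without control replicate 4 (9.27% of all genes) or PVP replicate 1 (8.65%), and to 8 without PVP replicate 4 (8.61%). Without PVP replicates 1 and 4 it was 4 (5.58%), and without control replicate 4 as well, 3 (5.55%). The comparisons of citrate and of PVP with control share the same 4 control mice.

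**Figure D3:**
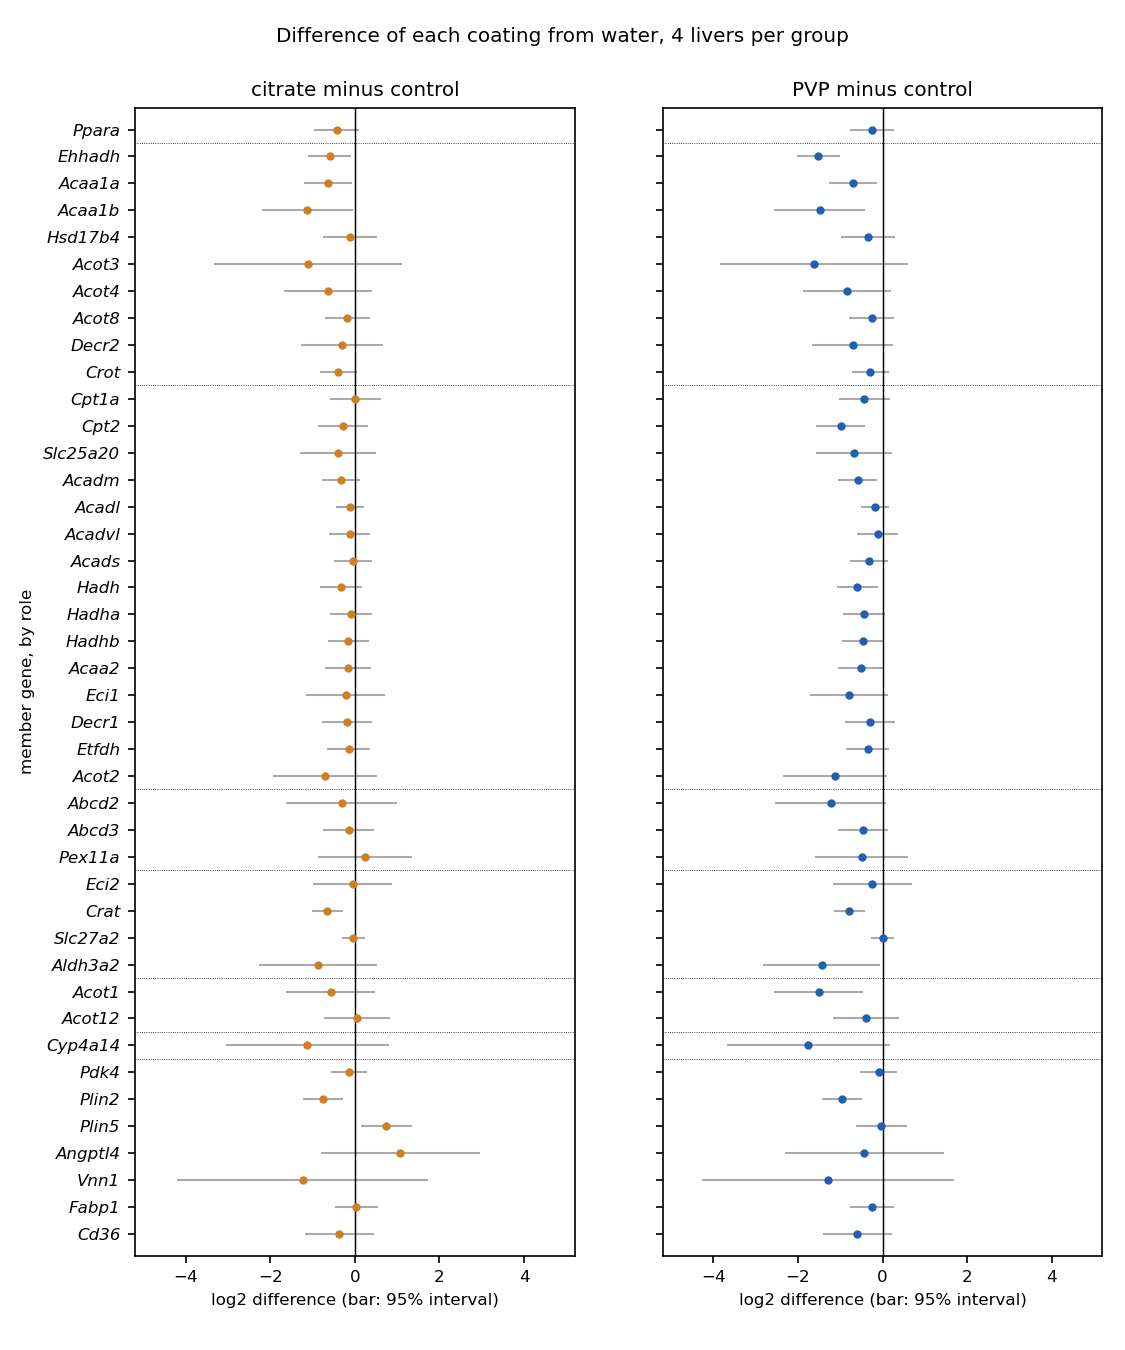
Fitted log2 difference of each member (points) with its 95% interval (bars) for citrate minus control (left) and PVP minus control (right), 4 livers per group, members ordered by role. With citrate 36 of 42 points lie below 0, and with PVP 41 of 42; Ehhadh at -1.52 with PVP has the smallest p.

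Between the coatings themselves, no member passed the threshold and no gene did (0% of all genes; limma), while 2800 genes had an unadjusted p under 0.05. PVP was lower than citrate for 37 members (50.2% of all genes), with a median of -0.29. Ehhadh, Plin5 and Cpt2 were lower with PVP at an unadjusted p under 0.05, where 8.72% of all genes were. There were 9 such members when PVP replicate 3 was left out (10.9% of all genes in that fit), 2 when PVP replicate 2 was (10.9%), and 1 when either PVP replicate 1 (5.67%) or citrate replicate 2 (5.57%) was. Without PVP replicate 1 the median was -0.11, with 27 members below 0. With the area as a covariate the median changed sign, to 0.13, with 8 members below 0.

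Ppara, the receptor itself, was at 11.57, 11.56, 11.83 and 12.10 in the control livers, at 11.81, 11.47, 10.83 and 11.23 with citrate and at 10.99, 11.88, 11.72 and 11.47 with PVP (replicates 1 to 4). The 3 groups overlapped. Its log2 difference was -0.43 (SE 0.24, adjusted p = 0.863) with citrate and -0.25 (SE 0.24, adjusted p = 0.558) with PVP in the limma fit.

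Among the 9 peroxisomal enzymes, which shorten very long fatty acids and release the products, every fitted difference was below 0 with either coating. The mean was -0.57 with citrate (from -1.12 to -0.11) and -0.86 with PVP (from -1.62 to -0.26). Without control replicate 4 the peroxisomal mean was -0.22 with citrate and -0.52 with PVP, and without control replicate 2 it was -0.85 with citrate. The PVP value was -0.25 with the area as a covariate. Ehhadh was at 15.45, 15.47, 15.52 and 16.13 in controls, at 15.26, 15.59, 14.79 and 14.53 with citrate, and at 14.20, 13.78, 14.47 and 14.04 with PVP. All PVP livers were below all control livers (4.92% of all genes were so) and below all citrate livers (4.84%), and the citrate males were below the citrate females. The limma difference was -1.52 with PVP (SE 0.23, 95% interval -2.03 to -1.01, adjusted p = 0.0566), -0.60 with citrate (SE 0.23, adjusted p = 0.634) and -0.92 between PVP and citrate (SE 0.23, adjusted p = 0.247). With the area as a covariate the PVP difference of Ehhadh was -1.35 (adjusted p = 0.136), and without PVP replicates 1 and 4 it was -1.52 (adjusted p = 0.29). Leaving out PVP replicate 3 brought it past the threshold (-1.70, adjusted p = 0.0348).

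The thiolases that end each peroxisomal cycle, Acaa1a and Acaa1b, are close copies, and whether the array's probes tell them apart was not tested. Acaa1b was at 14.41, 12.87, 14.23 and 14.46 in controls, at 12.97, 13.32, 12.54 and 12.64 with citrate and at 11.51, 11.97, 14.02 and 12.51 with PVP. Control replicate 2 was low among the controls and PVP replicate 3 reached the control range, so the groups overlapped. The log2 difference of Acaa1b was -1.12 (SE 0.49, adjusted p = 0.736) with citrate and -1.49 (SE 0.49, adjusted p = 0.166) with PVP (limma), which was -0.70 with the area as a covariate. Acaa1a was at 9.79, 8.82, 9.76 and 9.61 in controls, at 8.97, 8.99, 8.81 and 8.69 with citrate and at 8.18, 8.61, 9.54 and 8.82 with PVP. The same control and PVP mice stood apart from their groups, and Acaa1a differed from control by -0.63 with citrate (SE 0.26, limma adjusted p = 0.689) and -0.71 with PVP (SE 0.26, adjusted p = 0.185). Other peroxisomal enzymes were the second bifunctional enzyme Hsd17b4 (-0.11 with citrate, -0.35 with PVP), the carnitine octanoyltransferase Crot (-0.39 and -0.29), the dienoyl-CoA reductase Decr2 (-0.31 and -0.71) and the thioesterase Acot8 (-0.18 and -0.26).

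The 15 mitochondrial enzymes had smaller mean differences, -0.22 with citrate (14 of 15 below 0) and -0.53 with PVP (15 of 15 below 0). At an unadjusted p under 0.05, 3 of them were lower with PVP (Cpt2, Acadm and Hadh), where 12.3% of all genes were, and none with citrate, where 3.82% were. Without control replicate 4 the mitochondrial mean was -0.05 with citrate, and without control replicate 2 it was -0.41. With PVP it was -0.34 without PVP replicate 1 and -0.03 with the area as a covariate. The carnitine shuttle opens with Cpt1a, its rate-setting outer transferase, which was at 14.21, 14.47, 15.16 and 15.51 in controls, at 14.88, 14.91, 14.76 and 14.84 with citrate and at 14.14, 14.97, 14.42 and 14.09 with PVP. Controls spanned the citrate values entirely, and Cpt1a differed by 0.01 with citrate (SE 0.27) and by -0.43 with PVP (SE 0.27, limma adjusted p = 0.375). Cpt2, the inner transferase, was at 11.92, 11.59, 11.91 and 12.61 in controls, at 11.76, 11.82, 11.61 and 11.71 with citrate and at 10.61, 11.11, 11.67 and 10.69 with PVP. PVP replicate 3 lay within the control range and the other PVP livers below it. Cpt2 differed by -0.99 with PVP (SE 0.26, adjusted p = 0.126) and by -0.28 with citrate (SE 0.26, adjusted p = 0.984) in the limma fit. The PVP difference of Cpt2 was -0.52 with the area as a covariate.

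Inside the mitochondrion, Acadm, the medium-chain acyl-CoA dehydrogenase, was at 13.43, 13.16, 13.57 and 14.11 in controls, at 13.39, 13.39, 13.07 and 13.09 with citrate and at 12.86, 13.11, 13.29 and 12.65 with PVP. Among the PVP livers, replicate 3 alone was inside the control range, and Acadm differed by -0.59 with PVP (SE 0.20, limma adjusted p = 0.177). Hadha, the large subunit of the trifunctional protein for long chains, was at 14.46, 14.02, 14.29 and 14.34 in controls, at 14.28, 14.35, 14.03 and 14.07 with citrate and at 13.19, 14.19, 14.31 and 13.68 with PVP. PVP replicates 1 and 4 were below all other livers, and replicates 2 and 3 were inside the control range. Hadha differed by -0.43 with PVP (SE 0.23) and by -0.09 with citrate (SE 0.23), and its partner Hadhb by -0.47 and -0.16. The other acyl-CoA dehydrogenases differed by less with PVP, Acads by -0.33, Acadl by -0.18 and Acadvl by -0.11.

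Set against each other, the peroxisomal enzymes lay on average further below control than the mitochondrial ones. The peroxisomal mean minus the mitochondrial mean was -0.35 with citrate and -0.34 with PVP, and the coatings differed in this by 0.01. Per mouse this difference was -0.04 and 0.04 in the control males and -0.37 and 0.37 in the control females. It lay between -0.40 and -0.31 in the 4 citrate livers, and was -0.46, -0.78, -0.00 and -0.11 in PVP replicates 1 to 4. Citrate livers were thus close to each other (SD 0.0403, against 0.302 in controls and 0.351 with PVP). Controls are centred on their own mean in each sex, so their SD understates their spread and is not a like measure. Control replicate 2 reached their level and control replicate 4 lay opposite. Without control replicate 4 the difference was -0.17 with citrate and -0.16 with PVP. With the area as a covariate it was -0.33 and -0.22. Adding Eci2, Crat, Slc27a2, Abcd2, Abcd3 and Pex11a to the peroxisomal side gave -0.19 and -0.21. Median differences were -0.60 (peroxisomal) and -0.17 (mitochondrial) with citrate, and -0.71 and -0.47 with PVP. Acot3 varied most among the 9 peroxisomal enzymes, with deviations of -2.72 and 2.72 in control replicates 2 and 4. In PVP replicates 1 to 4 its deviations were -2.89, -3.41, 0.45 and -0.63. The share of Acot3 in the peroxisomal mean was not tested. No test was made, since the members were chosen with results known, and the ranges of single enzymes overlapped.

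**Figure D4:**
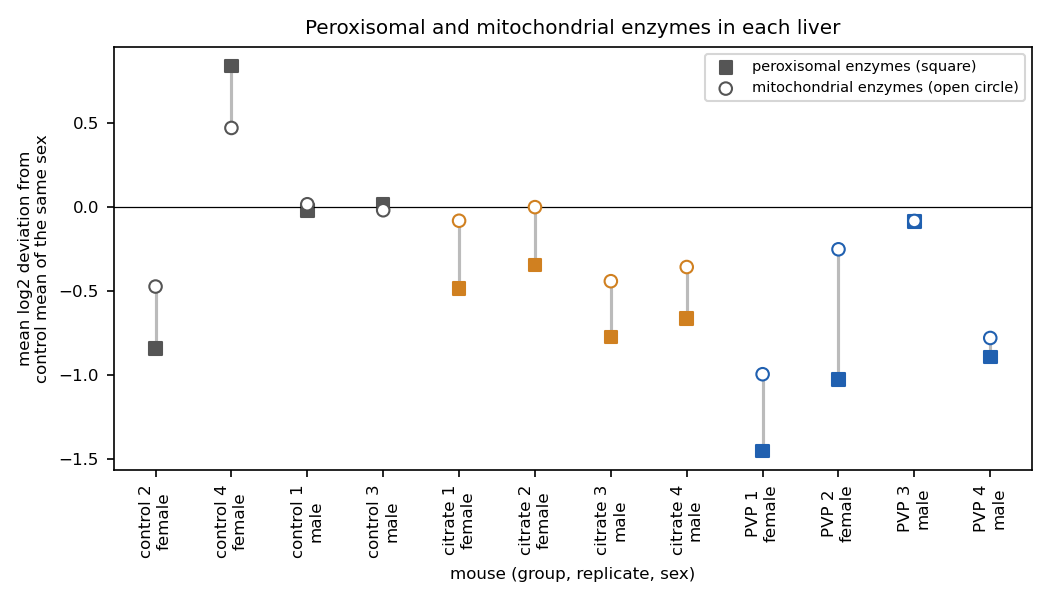
Mean log2 deviation of the 9 peroxisomal (filled squares) and 15 mitochondrial (open circles) enzymes from the mean of the control mice of that sex, in each liver; a grey line joins both means of a mouse. In each of the 4 citrate livers the square lies below the circle, with differences from -0.40 to -0.31, while the control females lie on either side, at -0.37 and 0.37.

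Peroxisome membrane genes were Abcd2 and Abcd3, transporters of fatty acyl-CoA, and Pex11a, which acts in peroxisome division. None passed for either coating, and the limma differences with PVP were -1.22 for Abcd2, -0.46 for Abcd3 and -0.50 for Pex11a. Among members of several locations, Crat, the carnitine acetyltransferase, was at 6.98, 6.91, 7.14 and 7.72 in controls, at 6.53, 6.64, 6.42 and 6.55 with citrate and at 6.19, 6.44, 6.63 and 6.34 with PVP. All silver-exposed livers were below all controls, as for 2.37% of all genes with citrate and 4.92% with PVP. Crat differed by -0.65 with citrate (SE 0.17, adjusted p = 0.384) and -0.79 with PVP (SE 0.17, adjusted p = 0.0881) in the limma fit, and by -0.52 with PVP with the area as a covariate. Aldh3a2, the fatty aldehyde dehydrogenase, differed by -0.87 and -1.44, with an SE of 0.63.

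In cytosol, the acyl-CoA thioesterase Acot1 was at 7.61, 7.49, 7.76 and 9.70 in controls, at 8.27, 8.10, 6.89 and 7.01 with citrate and at 6.03, 6.70, 7.16 and 6.65 with PVP. Control replicate 4 stood far above its group, and all PVP livers were below all controls (4.92% of all genes were so). Acot1 differed by -1.51 with PVP (SE 0.47, limma adjusted p = 0.158), by -1.02 without control replicate 4 and by -0.73 (adjusted p = 0.555) with the area as a covariate. Acot1, Acot2, Acot3 and Acot4 are similar genes on chromosome 12, and whether probes cross between them was not tested. Of the 6 Acot members, all were below 0 with PVP and 5 with citrate, and none passed.

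Members that coat lipid droplets were Plin2 and Plin5. Plin2 was at 13.50, 13.42, 13.86 and 14.14 in controls, at 13.29, 12.80, 12.69 and 13.10 with citrate and at 12.56, 13.06, 13.00 and 12.44 with PVP. All silver-exposed livers were below all controls, where 2.37% of all genes were so with citrate and 4.92% with PVP. Plin2 differed by -0.76 with citrate (SE 0.21, adjusted p = 0.441) and -0.96 with PVP (SE 0.21, adjusted p = 0.0952) in the limma fit. Plin5, the coat that ties droplets to mitochondria, was at 6.87, 7.34, 7.34 and 7.76 in controls, at 8.16, 8.37, 7.70 and 8.08 with citrate and at 6.86, 6.95, 7.41 and 7.98 with PVP. Citrate livers were high and overlapped the controls at replicate 3. Plin5 differed by 0.75 with citrate (SE 0.27, adjusted p = 0.59), by -0.03 with PVP (SE 0.27, adjusted p = 0.965) and by -0.77 between PVP and citrate (SE 0.27, adjusted p = 0.309).

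Secreted Angptl4, an inhibitor of lipoprotein lipase, was at 8.53, 9.14, 9.53 and 10.46 in controls, at 10.97, 11.26, 9.03 and 10.72 with citrate and at 6.29, 9.72, 10.22 and 9.68 with PVP. PVP replicate 1 was far below every other liver, and 3 of 4 citrate livers were above all controls. Angptl4 differed by 1.08 with citrate (SE 0.85, limma adjusted p = 0.954), and by -1.52 between PVP and citrate (SE 0.85), which was -0.50 without PVP replicate 1. Pdk4, which blocks pyruvate dehydrogenase, was at 5.85, 6.60, 6.06 and 7.48 in controls, at 6.63, 6.60, 5.95 and 6.23 with citrate and at 6.84, 6.47, 6.15 and 6.15 with PVP. Its groups overlapped, and the differences were -0.14 and -0.09 (SE 0.19).

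Vnn1, a pantetheinase, was at 8.92, 6.65, 7.89 and 12.59 in controls, at 9.03, 9.73, 6.03 and 6.31 with citrate and at 5.51, 10.58, 8.47 and 6.34 with PVP. Its spread within group and sex (SD 2.37) was the largest of the members, and its differences of -1.24 and -1.29 were smaller than their SE of 1.34. The fatty acid uptake protein Cd36 was at 9.76, 9.73, 10.06 and 11.86 in controls, at 10.67, 10.42, 9.65 and 9.20 with citrate and at 10.41, 9.91, 9.47 and 9.20 with PVP. Control replicate 4 was high, the groups overlapped, and the differences were -0.37 and -0.60 (SE 0.37). Fabp1 was at 19.60, 19.56, 19.56 and 19.31 in controls, at 19.56, 19.50, 19.56 and 19.56 with citrate and at 18.26, 19.56, 19.63 and 19.56 with PVP. It lay near the top of the scale in all livers but PVP replicate 1, so a change in it could be understated.

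The members' median SD within group and sex was 0.427, against 0.183 over all genes tested. After Vnn1 the most variable were Acot3 (SD 1.62), Cyp4a14 (1.32), Angptl4 (1.21) and Abcd2 (1.07). Control replicate 4 held the highest value of the 12 livers for Acot3, Cyp4a14, Vnn1, Acot2, Acot1 and Abcd2.

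Sex was the comparison in which members passed. Between females and males, 4 members passed the threshold, all higher in females, where 2.18% of all genes passed in either direction (0.931% higher in females). Abcd2, the peroxisomal transporter, ranged from 10.08 (median 11.15) to 12.76 in females and from 6.12 (median 8.25) to 9.26 in males. The thioesterase Acot3 ranged from 7.97 (median 9.26) to 14.09 in females and from 5.25 (median 5.67) to 6.58 in males. Acot4 ranged from 6.70 (median 7.66) to 9.57 in females and from 5.17 (median 5.80) to 6.42 in males. The sexes did not overlap for these 3 genes and for Pdk4 (0.906% of all genes were so, higher in females), whose limma difference of 0.71 had an adjusted p of 0.0514. The female minus male difference was 3.31 for Abcd2 (SE 0.48, limma adjusted p = 0.00587), 3.96 for Acot3 (SE 0.82, adjusted p = 0.035) and 1.89 for Acot4 (SE 0.38, adjusted p = 0.0312).

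Cyp4a14, an omega-hydroxylase, ranged from 14.87 (median 17.32) to 18.90 in females and from 12.71 (median 12.94) to 16.00 in males, so the sexes overlapped. Its difference was 3.18 (SE 0.71, limma adjusted p = 0.0494). Among males, the controls were at 16.00 and 15.00, the citrate mice at 12.71 and 12.83 and the PVP mice at 12.92 and 12.97. The differences in males were -2.73 for citrate and -2.55 for PVP, from 2 mice per mean and against the same 2 control males. In females the control values of 15.26 and 18.90 spanned the citrate values of 17.25 and 17.86, and the PVP values were 14.87 and 17.38. The test of the difference between the sexes gave 3.20 with citrate (limma adjusted p = 1) and 1.60 with PVP, and no member passed it for either coating (0% of all genes). At an unadjusted p under 0.05, no member differed between the sexes for citrate (2.45% of all genes did), and 2 members had a lower PVP difference in females than in males (1.91% of all genes). Abcd2 kept its call without each of the 12 mice in turn, Acot3 in 4 of these 12 fits, Acot4 in 5 and Cyp4a14 in 2. Leaving out control replicate 1, for example, took Acot3 to an adjusted p of 0.0867.

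**Figure D5:**
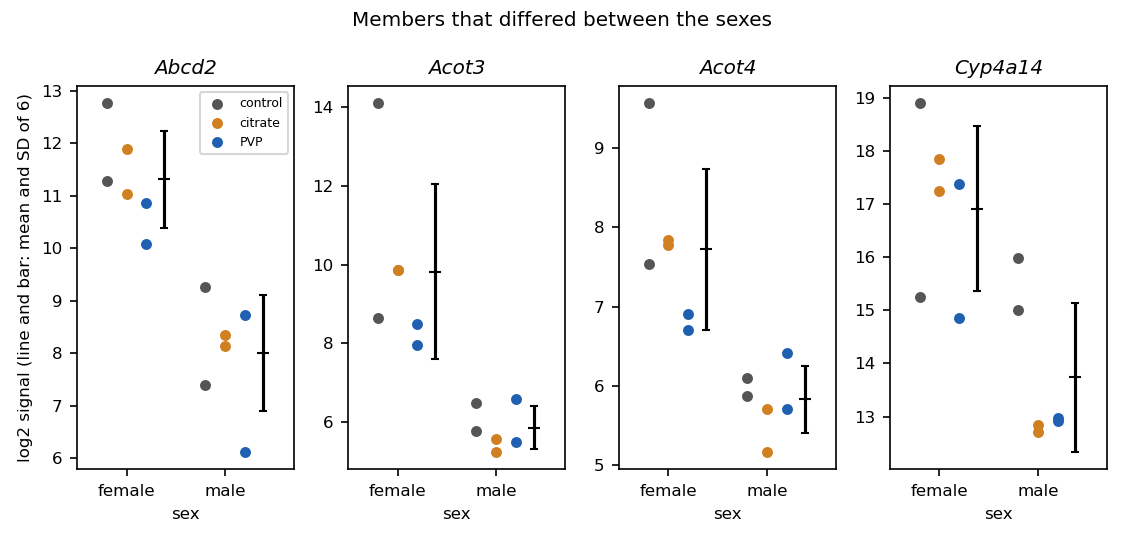
Log2 signal of Abcd2, Acot3, Acot4 and Cyp4a14 in the 6 female and 6 male livers (points, coloured by group), with the mean and SD of each sex (line and bar). Females lie above males without overlap for all but Cyp4a14, for which control males reach 16.00 and the lowest female is at 14.87.

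By sex, the median member difference with citrate was -0.02 in females (22 of 42 below 0) and -0.43 in males (38 of 42). With PVP it was -0.68 in females (41 of 42) and -0.43 in males (36 of 42). Peroxisomal and mitochondrial means were -0.41 and -0.04 in citrate females, -0.72 and -0.40 in citrate males, -1.24 and -0.62 in PVP females, and -0.49 and -0.43 in PVP males. In 9 members every PVP liver was below every control of its sex (Ehhadh, Acaa1a, Acaa1b, Cpt2, Acadm, Acot2, Crat, Acot1 and Plin2), as were 9.15% of all genes. With citrate this held for 2 members, Crat and Plin2, and for 4.69% of all genes.

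Other genes of the pathway, from 5 related lists with 89 tested genes, gave no gene past the threshold for either coating or between them (limma). With PVP 81 of 89 were below 0 (50.5% of all genes) and 25 were lower at an unadjusted p under 0.05 (12.3% of all genes). With citrate 66 were below 0 (49.6%) and 6 were lower at that p (3.82%). The median was -0.54 over 23 further targets of the receptor, -0.28 over 31 further peroxisomal genes, -0.28 over 17 further mitochondrial genes and -0.13 over 15 partners and coregulators with PVP, and -0.27, -0.09, -0.05 and -0.04 with citrate. Fgf21, a secreted target, was at 3.41 to 3.87, below the filter.

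Of these related genes, Txnip, which binds thioredoxin, was at 12.01, 12.51, 12.07 and 12.15 in controls, at 11.75, 12.77, 9.27 and 10.57 with citrate and at 10.39, 11.25, 10.17 and 9.69 with PVP. All PVP livers were below all controls (4.92% of all genes were so), and so were all citrate livers but replicate 2. Txnip differed by -1.81 with PVP (SE 0.45, limma adjusted p = 0.117). Mcee, the methylmalonyl-CoA epimerase, was at 9.78, 9.78, 10.07 and 9.92 in controls, at 9.76, 9.91, 9.77 and 9.83 with citrate and at 9.38, 9.20, 9.65 and 9.36 with PVP. PVP livers were below all others, where 4.92% of all genes were below all controls and 4.84% below all citrate livers. Mcee differed from control by -0.49 (SE 0.12, limma adjusted p = 0.11). The acyl-CoA synthetase Acsl5 was at 15.40, 15.66, 15.75 and 15.30 in controls, at 15.46, 15.70, 15.55 and 15.56 with citrate and at 14.72, 14.77, 14.87 and 15.40 with PVP. PVP replicate 4 alone reached the controls, and Acsl5 differed by -0.59 (SE 0.15, adjusted p = 0.119).

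With citrate, G0s2, an inhibitor of the lipase that opens droplets, was at 6.64, 5.44, 5.90 and 6.57 against 8.83, 7.08, 8.33 and 6.09 in controls, and Plin4, a further droplet coat, at 5.61, 5.70, 5.38 and 6.13 against 4.83, 5.04, 5.04 and 5.08. G0s2 overlapped through the low control replicate 4, and Plin4 did not overlap (386 of 19987 genes were so, higher with citrate). The limma differences were -1.45 for G0s2 (SE 0.52) and 0.71 for Plin4 (SE 0.24), neither past the threshold. Slc25a42, the mitochondrial importer of coenzyme A, was at 7.28, 6.99, 7.05 and 7.26 with citrate against 7.72, 7.27, 7.78 and 7.34 in controls, with an overlap at control replicate 2 and a difference of -0.38 (SE 0.13). Between the coatings, Med1, a coactivator subunit, was at 8.01, 7.96, 8.17 and 8.23 with PVP and at 8.36, 8.56, 8.29 and 8.61 with citrate. The groups did not overlap, as for 4.84% of all genes, lower with PVP. Med1 differed by -0.36 (SE 0.12, limma adjusted p = 0.28).

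Other cell types and the acute phase also differed between the livers. Acute phase genes, which hepatocytes make in inflammation, were above 0 for 15 of 19 and below 0 for 1 with PVP (median difference 0.77). Fga, Fgb and Fgg stood at the top of the scale on all 12 arrays and could not show a change. Of all genes, 50.5% were below 0 with PVP and 49.6% with citrate. Per mouse, the median deviation of the acute phase genes was 0.78, 1.21, 0.17 and 0.37 in PVP replicates 1 to 4. In the same mice, in that order, the member medians were -1.08, -0.20, -0.04 and -0.66. Their peroxisomal means were -1.45, -1.03, -0.09 and -0.89. Kupffer cell markers were above 0 for 12 of 12 with either coating (median 0.43 with citrate, 0.37 with PVP), and their summed level, as a mean log2 signal, ranged from 7.55 to 8.66 in controls, 7.81 to 9.05 with citrate and 7.81 to 9.81 with PVP. By sex, their median difference was 0.71 with citrate and 0.76 with PVP in females, and 0.02 and -0.05 in males. Neutrophil markers were above 0 for 6 of 6 with either coating, endothelial markers were below 0 for 6 of 11 with citrate and 10 of 11 with PVP, and stellate cell markers for 10 of 11 and 11 of 11. The part of these cells and of the acute phase in the member differences was not tested. In whole liver, fewer hepatocytes and less RNA per hepatocyte cannot be told apart.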

How the data were processed

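Liver RNA of 12 mice was measured on whole-transcript Affymetrix arrays, 1 per mouse, from Trizol extracts with biotin labelling, per the labels' protocols. The deposited table held log2 signals of 72688 probe sets, for which the submitters' processing notes name RMA and Transcriptome Analysis Console 4.0.1.36 without roles or order. The genome build behind the signals is not given in the sources used here. Values ran from 1.73 to a ceiling of 19.93, reached by 208 probe sets, and array medians lay between 4.13 and 4.40. The number of arrays limits the precision. Names came from the platform's table (30604 probe sets named 1 symbol, 2146 several, 39938 none), with 1121 symbols updated through RefSeq (GRCm38.p6).

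Genes with a mean above the 40th percentile of probe sets (3.93) were fitted by limma 3.58.1 (R 4.3.3) as group means plus sex over all 12 arrays, with a mean-variance trend. A fit of 6 group-by-sex means gave the effects by sex. Tests were two-sided, with Benjamini-Hochberg adjustment over 19987 genes at 0.05. SE and 95% intervals are those of the fit. Array quality was the area separating 1324 exon from 5222 intron control probe sets. The scripts were tested on simulated data. The members and lists were chosen with earlier results of these data known, so no test over a list was made. Values were given per array for the 6 members of smallest p in each coating comparison, the 4 of smallest p for sex, and a fixed list of members (Ppara, Ehhadh, Acaa1a, Acaa1b, Cpt1a, Acadm, Hadha, Cyp4a14, Pdk4, Plin2, Vnn1, Fabp1 and Cd36), with the 3 related genes of smallest p per coating comparison. Same-numbered mice were not pairs: control replicates 1 and 4 differ in sex from those of the silver groups, and residual correlations of same-numbered mice ran from -0.44 to 0.23. Alternatives covered the sex term, samples in the fit, trend, robust fit, array weights, centring, quantile normalization, the filter, probe set choice, a replicate block, array quality and leaving out mice; leaving out control replicate 4 with both PVP arrays of lowest area, and reading coating effects within each sex, were chosen after seeing the data.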

Additional observations from a re-analysis of the deposited data

Results flagged for a closer look

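Groups of 4 mice were screened for a single mouse far from the others by Dixon's criterion, which chance meets in about 1 of 20 independent groups. The groups here reuse the same 12 mice, and each mixes 2 females and 2 males. That share is therefore not a like measure, and no excess can be read from it. The criterion was met in 8 of 69 groups. In controls these were Ehhadh (highest, 16.13), Acot1 (highest, 9.70) and Cd36 (highest, 11.86), all in replicate 4, Fabp1 (lowest, 19.31), also in replicate 4, and Acaa1b (lowest, 12.87) in replicate 2. With PVP they were Angptl4 (lowest, 6.29) and Fabp1 (lowest, 18.26), both in replicate 1. With citrate it was Fabp1 (lowest, 19.50) in replicate 2, where the 3 other citrate mice hold 1 shared value near the top of the scale, so its gap is small in signal.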

How the results depend on the processing

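The 31 results of single genes with the smallest p in their comparison were followed under each alternative. All 829 values kept their sign, 787 kept their side of the threshold, 38 lost a call and 4 gained one. Only the 4 sex results were called as reported, so all 38 lost calls fell on them, and the other results had no call to lose. These genes were picked by p in the same data, which favours a kept sign, so the totals do not measure how stable the results are. Other members did change sign with the area as a covariate, where 22 of 42 were below 0 for PVP and 8 of 42 between the coatings. The count of genes called was small and moved readily. For citrate (1 as reported) it was 0 without the sex term, with 6 means, with only the 2 groups compared, with a replicate block and without the 2 arrays of lowest area, 2 with no trend, a robust fit or median centring, 4 with a 60th percentile filter, 5 with array weights, the area as a covariate or 3 arrays left out, and 6 with quantile normalization. For PVP (8 as reported) it was 0 with 6 means, with only the 2 groups, with the replicate block, without the 2 arrays of lowest area or 3 arrays, 2 without the sex term or with the area, 3 with a robust fit, 4 with no filter, 5 with the mean of all probe sets, 37 with array weights, 52 with no trend and 85 with the 60th percentile filter. Between the coatings (0 as reported) it was 1 with 6 means, 2 with quantile normalization and 4 with array weights. With PVP 1 member, Ehhadh, was called with no trend (adjusted p = 0.0339), array weights (0.0469) or the 60th percentile filter (0.0425, limma). Members called between the sexes (4 as reported) were 8 with array weights or the area, 2 with 6 means or 3 arrays left out, and 1 without the 2 arrays of lowest area or with the replicate block, where Abcd2 had an adjusted p of 0.0754. With the area as a covariate the median member difference was -0.014 for PVP and 0.13 between the coatings, and without 3 arrays it was 0.0125 for PVP; the cause was not tested. Leaving out each mouse in turn, genes called ranged from 0 to 6 (citrate), 1 to 61 (PVP), 0 to 0 (PVP against citrate) and 245 to 605 (sex), and members called from 0 to 1 (PVP) and 1 to 8 (sex). The median member difference ranged from -0.47 to -0.04 (citrate), -0.73 to -0.28 (PVP) and -0.49 to -0.11 (PVP against citrate), and peroxisomal minus mitochondrial from -0.45 to -0.17, -0.44 to -0.16 and -0.08 to 0.14. The ceiling of the scale limits what Fabp1 can show.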
